A study of Mus musculus with 14 samples.

Results

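The genes described here are 10 components and response genes of bone morphogenetic protein (BMP) and transforming growth factor beta (TGF-beta) signalling: the ligand Bmp3, the receptors Bmpr1a, Bmpr2, Acvr2a and Tgfbr2, the inhibitory Smads Smad6 and Smad7, and the Id genes Id1, Id2 and Id3. They were chosen by name, as genes of these pathways that are read out or expressed in the intestinal stem cell, and make up 10 of the 55335 genes in each count table. The series holds 14 RNA libraries of mouse intestinal stem cells, which were isolated by sorting for EGFP expressed from the Lgr5 locus. In the first experiment every mouse carried Lgr5CreERT2-IRES-GFP and Chrm3flox/flox, floxed alleles of the gene for the M3 muscarinic acetylcholine receptor. Tamoxifen (TAM) made the group named KO and vehicle the group named WT, 3 days before the procedure abbreviated ES, so that genotype and injection differ together. The groups were KO ES, KO NT, WT ES and WT NT, with n = 2 each, and the labels do not spell out ES or NT. In the second experiment the mice carried Lgr5CreERT2-IRES-GFP without the floxed gene and were 18 months old (old) or 2 months old (young), with n = 3 each. Because Cre and EGFP are both driven from Lgr5, sorting selects for cells that hold EGFP made from this locus. Deletion is limited to cells in which the locus was active and to their descendants.

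BMP ligands bring type I receptors such as Bmpr1a together with type II receptors such as Bmpr2 and Acvr2a, and the activated complex phosphorylates Smad1, Smad5 and Smad9, which enter the nucleus with Smad4. TGF-beta binds Tgfbr2 first and signals through Smad2 and Smad3. In the intestine BMP signalling is low at the crypt base and rises toward the villus, where it restrains stem cell division and favours differentiation. Id genes are direct BMP targets whose proteins block basic helix-loop-helix (bHLH) transcription factors, while Smad6 and Smad7 are induced by the pathways and feed back on them.

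Total counts per library ran from 26683563 to 36882310, and the 10 genes had 119 to 5830 counts each, the lowest for Smad6 and the highest for Bmpr1a. All 10 passed the count filter in both tables, among 17364 genes tested in the Chrm3 table and 16807 in the ageing table. The mitochondrial share of counts was 8.74% in KO NT replicate 2, against 6.12% to 7.53% elsewhere. The KO NT pair was also the least alike of the Chrm3 groups, its counts differing by a chi-square of 25.8 per degree of freedom, against 3.59 for the WT NT pair. Chrm3 itself was at 6.04 to 9.24 CPM (counts scaled to the size of the library) in KO and at 10.9 to 13.0 CPM in WT. Which exons were removed is not known here, so the gene-wide level is a weak check of the KO label. Stem cell markers (10 genes) summed to 11572 CPM or more in every library, and 7 epithelial markers to 5476 to 6598 CPM. Most of the stem cell sum was Olfm4, at 7975 to 12846 CPM, while Lgr5 had 80.3 to 133 CPM. Fibroblast and telocyte markers, from the cells that supply much of the BMP ligand and antagonist in the gut wall, summed to 1.09 to 3.15 CPM, and 7 of the 8 were under 1 CPM in every library. Smooth muscle markers summed to 0.227 to 1.54 CPM and endothelial markers to 1.09 to 2.92 CPM. In these bulk libraries, fewer cells of a type and less RNA per cell cannot be told apart.

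On GRCm38 the Id genes are compact, with Id1 on chromosome 2 (152736251 to 152737410), Id2 on chromosome 12 (25093799 to 25097140) and Id3 on chromosome 4 (136143497 to 136145755). Bmp3 lies on chromosome 5 (98854415 to 98884396), Smad6 on chromosome 9 (63953076 to 64022059) and Smad7 on chromosome 18 (75367529 to 75395935). The receptor genes are Bmpr1a on chromosome 14 (34410734 to 34503341), Bmpr2 on chromosome 1 (59763400 to 59879014), Tgfbr2 on chromosome 9 (116084293 to 116175360) and Acvr2a on chromosome 2 (48814109 to 48903269). Exons of Bmpr1a overlap the antisense gene Gm17110 and exons of Acvr2a overlap Orc4 on the other strand. The libraries are strand-specific, but whether the counting used strand is not stated, so these counts could include antisense reads.

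Divided by exon length, Id1 had the highest level of the 10 genes in every group, with 54.4 ± 1.78 CPM per kilobase in KO ES, 69.6 ± 13.7 in KO NT, 51.7 ± 0.97 in WT ES and 50.4 ± 0.81 in WT NT (SD, n = 2 each). In the ageing libraries it had 70.6 ± 8.85 CPM per kilobase in old and 59.4 ± 4.50 in young (SD, n = 3 each). Id3 and the type I receptor Bmpr1a came next, at group means of 20.4 to 30.4 CPM per kilobase. Their order changed between groups, and their library values overlapped in KO ES, WT ES, old and young. Id2, Acvr2a and Bmp3 followed in most groups, with means between 5.68 and 12.2 CPM per kilobase. WT ES was the exception in this order, since Bmp3 stood above Acvr2a and Id2 there, at 9.10 ± 0.13 CPM per kilobase, without overlap. Tgfbr2, Smad7 and Bmpr2 lay close together at 3.14 to 4.87 CPM per kilobase. Neighbours among them overlapped in KO ES and young throughout, in KO NT and WT ES for Tgfbr2 and Smad7, in old for Tgfbr2 and Bmpr2, and in WT NT for none. Smad6 was the lowest everywhere, at 1.93 to 2.86 CPM per kilobase.

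**Figure D1:**
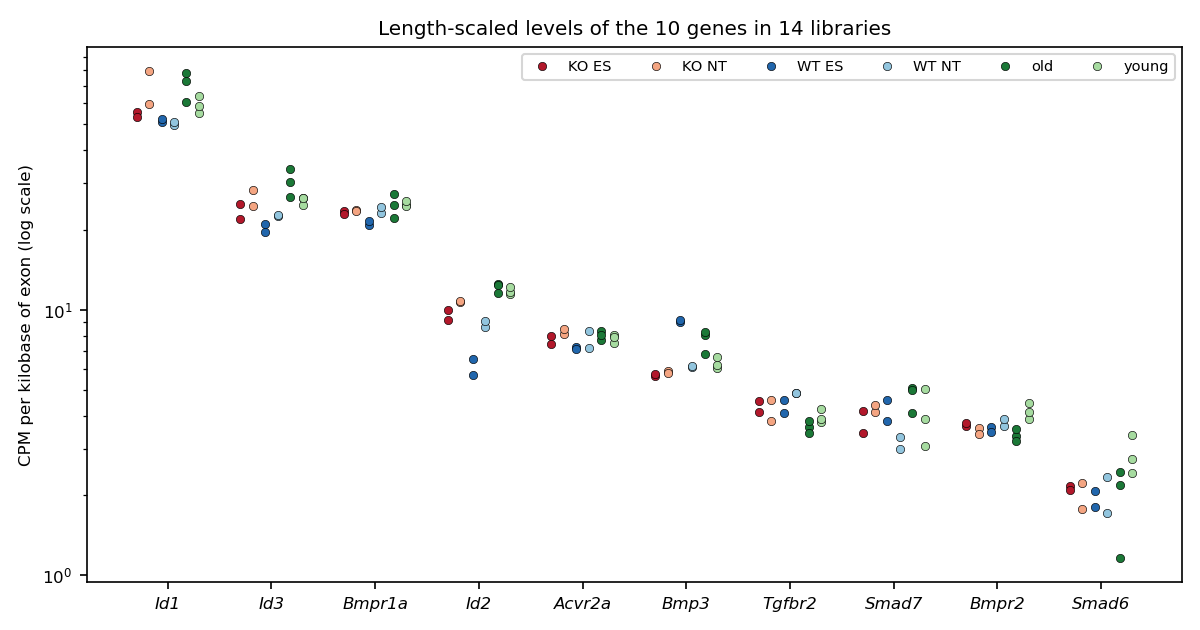
Level of each gene in CPM per kilobase of exon (vertical log axis) in the 14 libraries, 1 point per library, coloured by group. Id1 stands above all other genes in every group, Smad6 is lowest, and Bmp3 in WT ES lies above Id2 in WT ES. The Chrm3 and ageing libraries were scaled separately.

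The sequence before the RefSeq gene start (GRCm38.p6) is shown for Id2, Id3 and Bmpr2, the promoters on which the calls below or the shared Id family bear and for which a RefSeq window was at hand. Of the 10 genes, 7 have such a window, and Id1, Smad7 and Bmp3 are named only. Smads bind the letters AGAC (GTCT on the other strand), and the BMP Smads also bind the GC-rich element GGCGCC, and these are in capitals in the stretches below. Positions lie on the minus strand for Id2 and on the plus strand for Id3 and Bmpr2.
Id2, chr12:25096254-25096342: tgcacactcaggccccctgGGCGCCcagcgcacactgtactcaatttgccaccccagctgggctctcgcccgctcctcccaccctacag
Id2, chr12:25096099-25096128: gagtgcacataaaAGACgccccgcccggct
Id3, chr4:136143643-136143672: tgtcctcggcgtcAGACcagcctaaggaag
Id3, chr4:136143741-136143770: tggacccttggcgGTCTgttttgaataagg
Bmpr2, chr1:59764162-59764191: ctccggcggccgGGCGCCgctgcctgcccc

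Within 250 bases before the start, searched on both strands, GGCGCC was found in 3 of the 7 genes (Id2, Bmpr1a and Bmpr2), against 9.59% of 32851 windows of all genes. The letters AGAC or GTCT were found in 5 of 7, against 82.9% of all windows. The longer CAGAC or GTCTG, which contains them, was found in 3 of 7 (Id3, Acvr2a and Tgfbr2), against 42.2%. These matches describe the letters only. All stretches shown for Id3 and Bmpr2, and the second for Id2, also fall within exons of GENCODE M21 transcripts that start further upstream.

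Of the 10 genes, 6 passed in no comparison, and those called (adjusted p under 0.05 over all genes, quasi-likelihood test of edgeR) were Bmp3, Id2, Id1 and Bmpr2. With ES in WT, 1 gene rose (Bmp3), 1 fell (Id2) and 8 did not pass, where 3.48% of all genes were called, 2.1% as higher and 1.39% as lower. With ES in KO edgeR called 0 of 10, where 0.513% of all genes were called, 0.415% as higher and 0.0979% as lower. At an unadjusted p under 0.05 there was 1 (Id1), and DESeq2 called 0. In KO against WT in NT, 1 rose (Id1), where 4.47% of all genes were called, 2.36% as higher and 2.11% as lower. In KO against WT in ES, 1 rose (Id2) and 1 fell (Bmp3), where 7.56% were called, 3.09% as higher and 4.47% as lower. Whether ES acted differently in the genotypes was tested as the ES effect in KO minus that in WT, which passed for 1 gene (Bmp3, with a lower effect in KO). Of all genes 0.109% passed, 0.0115% with a higher and 0.0979% with a lower effect in KO. Old against young gave 1 lower gene (Bmpr2), where 7.84% were called, 4.42% as higher and 3.42% as lower. The 4 comparisons within the Chrm3 table share groups with each other, so their calls are not separate evidence.

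The median log2 fold change of the 10 genes was -0.09 for ES in WT and -0.07 for ES in KO, beside -0.00 over all genes in each. It was 0.05 for KO against WT in NT, beside -0.01 over all genes, 0.09 for KO against WT in ES, beside 0.00, and 0.04 for old against young, beside -0.00. Library values of the compared groups did not overlap for 7 of 10 genes with ES in WT, where this held for 52.8% of all genes. Of the 7, 2 were higher and 5 lower, against 26% and 26.9% of all genes. With ES in KO the groups did not overlap for 6 genes (33.3% of all genes), 1 higher and 5 lower (17.1% and 16.1%). In KO against WT they did not overlap for 7 genes in NT (48%), 4 higher and 3 lower (22.7% and 25.4%), and for 8 genes in ES (53.3%), 7 higher and 1 lower (27% and 26.3%). In old against young this held for 3 genes (26.4%), 2 higher and 1 lower (13.2% in each direction). With 2 libraries a group, values that do not overlap are thus common.

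**Figure D2:**
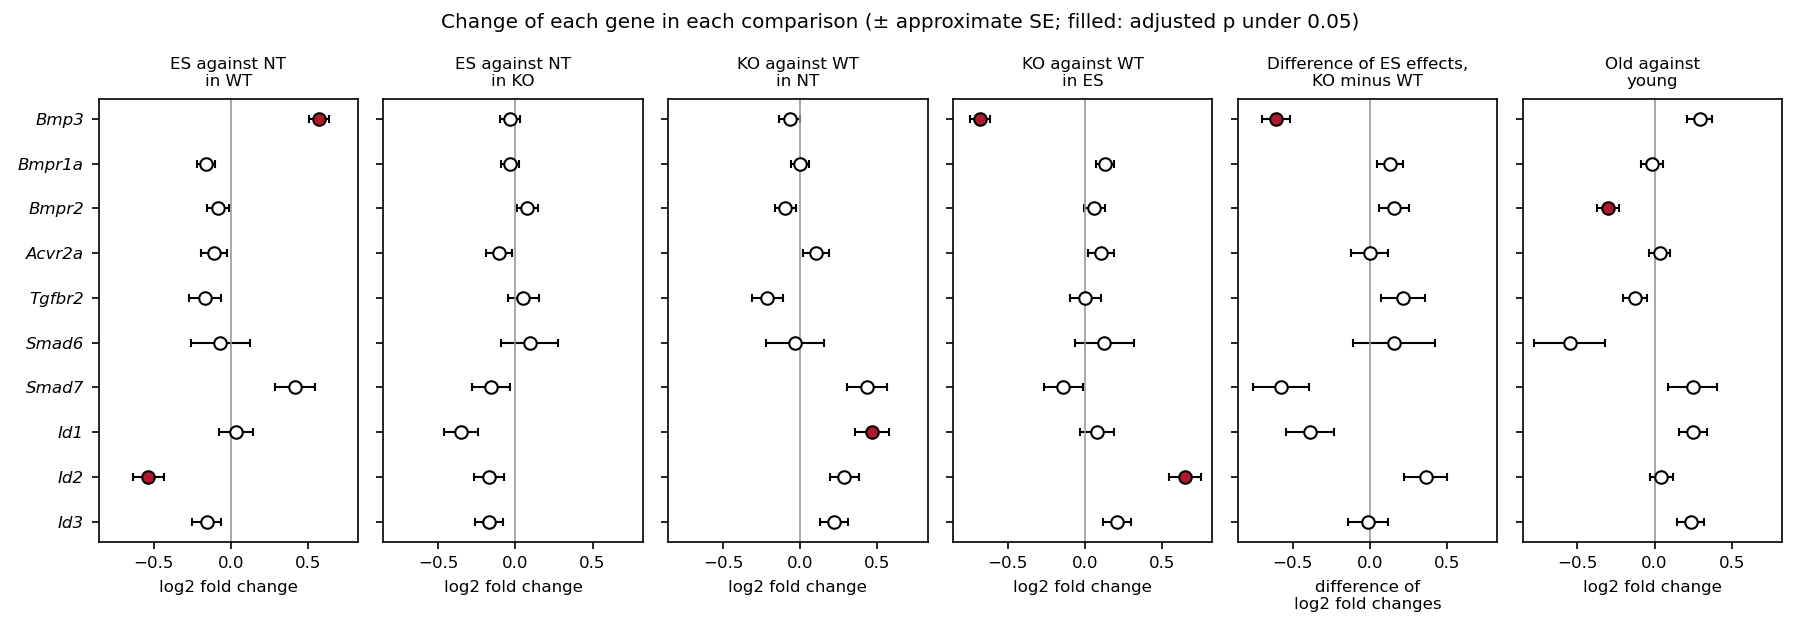
Log2 fold change of each gene in each comparison with its approximate standard error (horizontal bars); filled points have an adjusted p under 0.05. Bmp3 is 0.57 with ES in WT and -0.68 in KO against WT in ES. Id2 has the opposite signs in these 2 comparisons, at -0.53 and 0.65. For the difference of the ES effects Bmp3 is filled (-0.61) and Id2 is not (0.36). Most receptors lie near 0.

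Bmp3, a BMP family ligand known for opposing the other BMPs at the type II activin receptors, had 66.6 and 68.0 CPM in WT ES, against 45.1 and 45.3 CPM in WT NT. In KO it had 41.8 and 42.3 CPM with ES, against 43.4 and 42.8 CPM in NT. Only the WT ES libraries were high, and they did not overlap any other group of the experiment. Bmp3 rose with ES in WT, by 0.57 ± 0.07 on the log2 scale (1.49-fold, adjusted p = 0.00193), and had a log2 fold change of -0.04 ± 0.07 with ES in KO (adjusted p = 0.962). The difference of these effects was -0.61 ± 0.09 (adjusted p = 0.0475). Within ES, Bmp3 fell in KO against WT by 0.68 ± 0.07 on the log2 scale (adjusted p = 0.000222). In NT the KO libraries also lay below the WT ones, but the log2 fold change was -0.07 ± 0.07 (adjusted p = 0.647).

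The lower Bmp3 in KO ES kept its call in all 14 alternative fits, 8 of them leaving out a library. The rise in WT was lost without WT NT replicate 1 or 2 (adjusted p = 0.0597 and 0.0615), and the difference of effects held in 2 of 8 fits that left out a library, those without a KO NT library (0.113 to 0.363 in the others). The difference was also lost with no count filter (0.261) and with the earlier quasi-likelihood form (0.0536), so that it held in 5 of 13 alternative fits.

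In the ageing libraries Bmp3 had 59.4, 60.9 and 50.7 CPM in old, against 44.5, 45.9 and 49.1 CPM in young. The old libraries all lay above the young ones, with old replicate 3 nearest to them. The log2 fold change of 0.29 ± 0.08 did not pass (adjusted p = 0.0518), and it passed without old replicate 3 (0.37, adjusted p = 0.00820) and with DESeq2 (adjusted p = 0.0186).

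Marker sums of several mature epithelial cell types differed between the same groups as Bmp3. The 7 goblet cell markers summed to 10107 to 10315 CPM in WT ES, against 4968 to 5084 CPM in WT NT, and to 4311 to 4346 CPM in KO ES, against 2527 to 2598 CPM in KO NT. The 11 enterocyte markers summed to 2221 to 2588 CPM in WT ES, against 1562 to 1572 CPM in WT NT, and to 1284 to 1522 CPM in KO ES, against 1384 to 2126 CPM in KO NT. In KO the goblet sum was higher with ES while Bmp3 was not. The 7 enteroendocrine markers summed to 251 to 259.7 CPM in WT ES, against 147 to 159.9 CPM in WT NT, and to 148 to 158 CPM in KO ES, against 115 to 136 CPM in KO NT. The 7 Paneth cell markers summed to 9540 to 10180.2 CPM in WT ES, against 7930.5 to 8027 CPM in WT NT, and to 10034.5 to 10288 CPM in KO ES, against 6304 to 7919 CPM in KO NT. WT ES thus stood apart from the other groups of the experiment in its goblet, enterocyte and enteroendocrine sums, and not in its Paneth sums. In the ageing table the goblet sum was 8655 to 9052 CPM in old, against 6546 to 7797 CPM in young, and the enteroendocrine sum was 391, 448 and 311 CPM in old replicates 1 to 3, against 214 to 241 CPM in young. The enterocyte and Paneth sums overlapped. By single markers in old, edgeR called 3 goblet markers higher and 1 lower, and 3 enteroendocrine markers higher. It called 2 enterocyte markers higher and 1 lower, and 3 Paneth markers lower. Of all genes, 4.42% were called higher and 3.42% lower. The median log2 fold change of the 7 Paneth markers was -0.35. All markers of these 4 lists had counts in every library. The 7 tuft cell markers summed to 75.9 to 76.3 CPM in WT ES, against 70.2 to 72.8 CPM in WT NT. In KO their sums were 37.1 to 42.7 CPM with ES and 27.1 to 33.7 CPM in NT. In old the tuft sums were 78.3 to 80.2 CPM, against 142 to 173 CPM in young. Of 6 tuft markers tested, edgeR called 5 lower in old, while the Bmp3 libraries lay higher there. The part of any of these cell types in the Bmp3 levels was not tested.

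Bmpr1a, the type I receptor through which most epithelial BMP signals pass, had 149.9 and 146 CPM in KO ES, 152 and 151 CPM in KO NT, 133 and 138 CPM in WT ES, and 147 and 156 CPM in WT NT. The WT ES libraries were the lowest and the other groups lay together. With ES in WT its log2 fold change was -0.16 ± 0.06 (adjusted p = 0.166). In old it had 158, 141 and 174 CPM, against 157, 157 and 163 CPM in young, so that the old libraries spread on both sides of the young ones (-0.02 ± 0.07, adjusted p = 0.936).

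Bmpr2, the type II receptor dedicated to BMPs, had 60.04, 57.9 and 64.0 CPM in old, against 70.0, 73.9 and 80.4 CPM in young. Every old library lay below every young one. Bmpr2 fell in old by 0.30 ± 0.07 on the log2 scale (0.81-fold, adjusted p = 0.0242). The call was lost without young replicate 2 or 3 or old replicate 1 or 2 (adjusted p = 0.0731 to 0.109) and with no count filter (0.0787). In the Chrm3 experiment Bmpr2 had 65.6 and 67.4 CPM in KO ES, 64.8 and 61.5 CPM in KO NT, 65.1 and 62.4 CPM in WT ES, and 65.5 and 69.6 CPM in WT NT. All 8 libraries lay within a narrow band, and its log2 fold changes ran from -0.10 ± 0.07 in KO against WT in NT (adjusted p = 0.510) to 0.08 ± 0.07 with ES in KO (0.871). The difference of its ES effects was 0.16 ± 0.10 (0.591).

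Acvr2a, a type II receptor shared by activins and BMPs, had 42.5 and 45.3 CPM in KO ES, 46.3 and 48.1 CPM in KO NT, 41.2 and 40.6 CPM in WT ES, and 40.7 and 47.3 CPM in WT NT. Its spread within WT NT was as wide as the distance between groups, and none of the ES or KO comparisons called it (adjusted p = 0.527 to 0.840). Old libraries had 47.3, 43.9 and 45.6 CPM, against 45.9, 42.7 and 45.0 CPM in young, and the groups overlapped (0.03 ± 0.07, adjusted p = 0.843).

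Tgfbr2, the type II receptor that binds TGF-beta, had 33.9 and 37.3 CPM in KO ES, 37.4 and 31.3 CPM in KO NT, 37.5 and 33.5 CPM in WT ES, and 39.8 and 40.0 CPM in WT NT. The WT NT pair was the highest and the other groups overlapped each other. The log2 fold change was -0.17 ± 0.10 with ES in WT (adjusted p = 0.442) and -0.21 ± 0.10 in KO against WT in NT (adjusted p = 0.308), comparisons that share the WT NT pair. In old it had 29.6, 28.2 and 31.2 CPM, against 31.1, 34.5 and 31.7 CPM in young, where old replicate 3 lay above the lowest young library (-0.13 ± 0.08, adjusted p = 0.396).

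**Figure D3:**
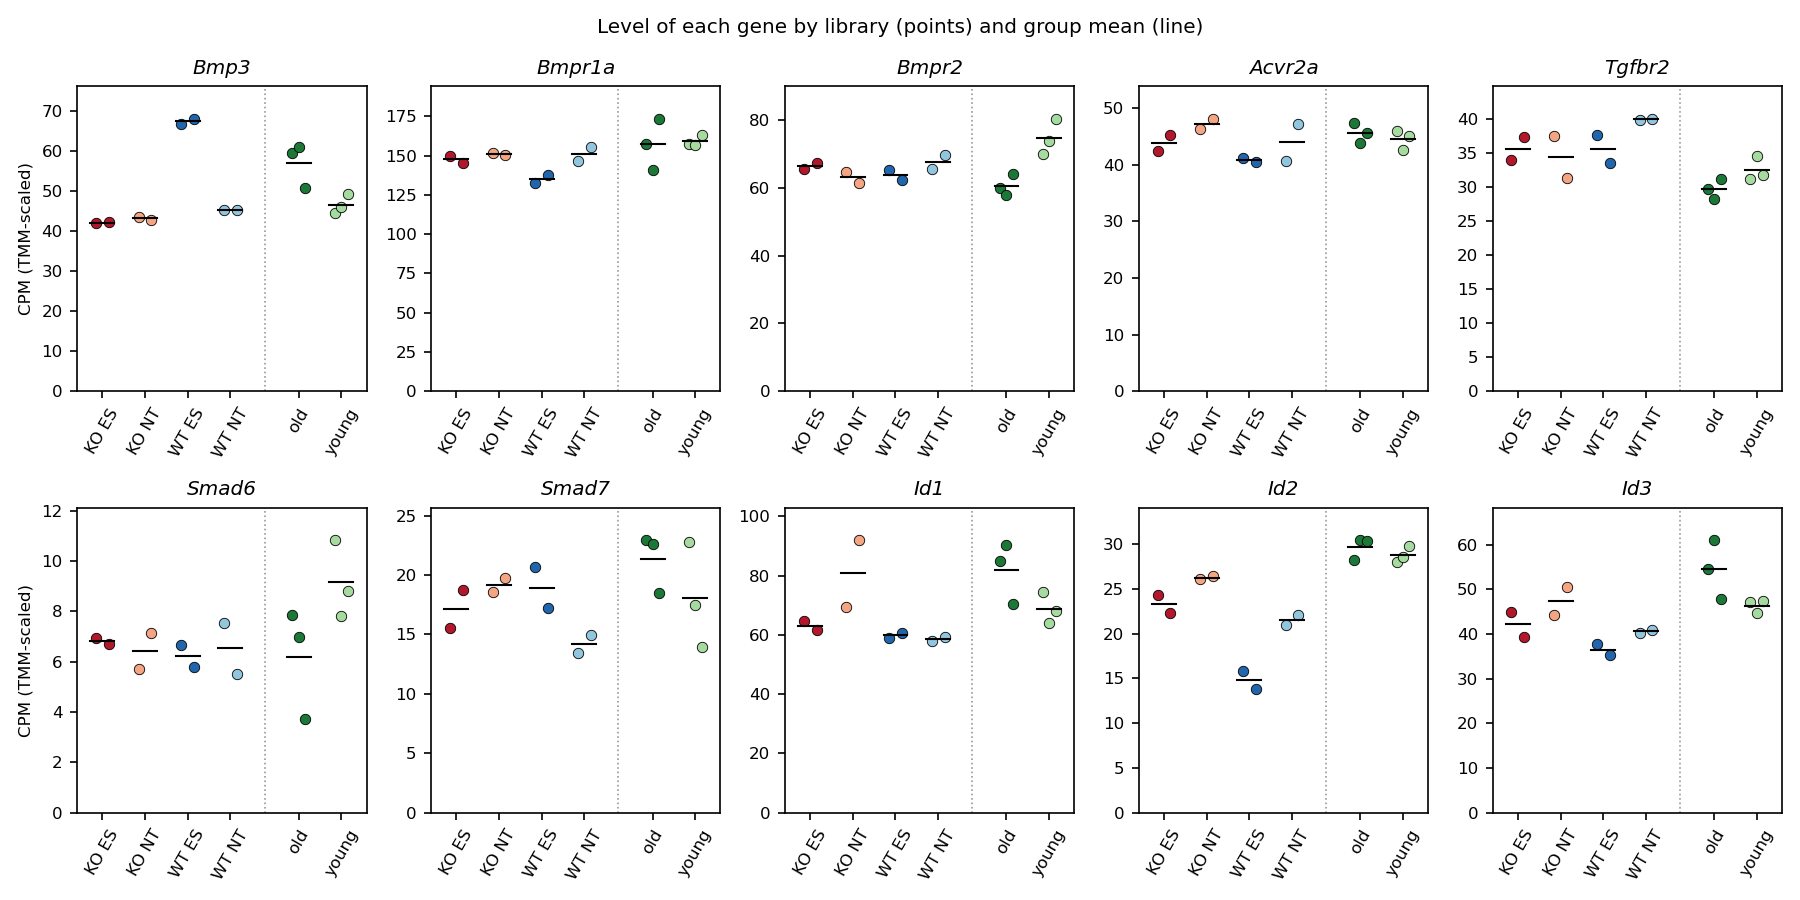
CPM of each gene in each library (points) with group means (lines), in panels that start at 0; the dotted line separates the Chrm3 from the ageing libraries, which were scaled separately. Bmp3 is high in WT ES, Id2 is low in WT ES, Id1 is highest in KO NT replicate 2, and Bmpr2 is lower in all 3 old libraries than in the young ones.

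Smad7, which blocks both BMP and TGF-beta receptors, had 20.6 and 17.2 CPM in WT ES, against 13.5 and 14.95 CPM in WT NT, and 15.6 and 18.8 CPM in KO ES, against 18.6 and 19.8 CPM in KO NT. The WT NT libraries were the lowest of the experiment and the other 3 groups overlapped. Its log2 fold change was 0.42 ± 0.13 with ES in WT (adjusted p = 0.1102), -0.16 ± 0.12 with ES in KO (0.838) and 0.43 ± 0.13 in KO against WT in NT (0.0928). The difference of the ES effects, -0.58 ± 0.18, did not pass (adjusted p = 0.260). Fitting only the WT groups gave ES in WT an adjusted p of 0.0420. Old libraries had 22.9, 22.6 and 18.5 CPM, against 22.8, 17.5 and 13.9 CPM in young, with overlap (0.25 ± 0.16, adjusted p = 0.426).

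Smad6, which acts mainly on BMP receptors, was low throughout, with 6.95 and 6.70 CPM in KO ES, 5.71 and 7.13 CPM in KO NT, 6.66 and 5.80 CPM in WT ES, and 7.54 and 5.51 CPM in WT NT. The spread within KO NT and WT NT covered the other groups, and every log2 fold change of the Chrm3 table was smaller than its standard error. In old it had 7.87, 6.999 and 3.72 CPM, against 10.8, 7.82 and 8.82 CPM in young. Old replicate 3 was the lowest library of all, and the groups overlapped. The log2 fold change of -0.55 ± 0.23 did not pass (adjusted p = 0.189).

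Among the Id genes, Id2 had 15.9 and 13.8 CPM in WT ES, against 20.95 and 22.1 CPM in WT NT, and 24.3 and 22.3 CPM in KO ES, against 26.1 and 26.4 CPM in KO NT. The WT ES pair was low, and both KO groups lay above both WT groups. Id2 fell with ES in WT by 0.53 ± 0.10 on the log2 scale (0.69-fold, adjusted p = 0.0227), and had a log2 fold change of -0.17 ± 0.09 with ES in KO (adjusted p = 0.705). Within ES, Id2 rose in KO against WT, by 0.65 ± 0.10 (1.57-fold, adjusted p = 0.00398). In NT the log2 fold change of KO against WT was 0.29 ± 0.10 (adjusted p = 0.138), and the difference of the ES effects was 0.36 ± 0.14 (adjusted p = 0.363).

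The call of Id2 in KO against WT in ES held in all 14 alternative fits. That of ES in WT was lost without WT NT replicate 1 or 2 or WT ES replicate 1 or 2 (adjusted p = 0.0700 to 0.230) and with no count filter (0.0891). Stem cell markers summed to 11572 to 11942 CPM in WT ES, where Id2 was low, against 14754 to 15074 CPM in WT NT, and to 14615 to 15404 CPM in KO ES, against 15123 to 16986 CPM in KO NT. Most of these sums was Olfm4. By single markers, edgeR called 8 of 10 lower with ES in WT, where 1.39% of all genes were called lower. In KO against WT in ES it called 3 higher and 0 lower (3.09% and 4.47% of all genes). In KO against WT in NT it called 0 higher and 2 lower (2.36% and 2.11%). There 9 of 10 had a log2 fold change below 0 (median -0.11), although the sums were higher in KO. The part of the stem cell markers in the Id2 levels was not tested. With age Id2 was even, at 28.2, 30.4 and 30.3 CPM in old, against 28.01, 28.6 and 29.7 CPM in young, with overlapping groups (0.04 ± 0.07, adjusted p = 0.816).

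Id1 had 69.6 and 91.99 CPM in KO NT, against 57.8 and 59.2 CPM in WT NT, and 64.6 and 61.7 CPM in KO ES, against 59.1 and 60.7 CPM in WT ES. KO NT replicate 2 stood far above every other library of the experiment, and KO NT replicate 1 was next. Id1 rose in KO against WT in NT, by 0.46 ± 0.11 (1.38-fold, adjusted p = 0.0388). The call held in 1 of 8 fits that left out a library, the one without KO NT replicate 1 (adjusted p = 0.000613), and was lost without any of the other 7 libraries (WT NT, WT ES and KO ES replicates 1 and 2 and KO NT replicate 2, 0.0548 to 0.263). Without KO NT replicate 2 the log2 fold change was 0.26 (adjusted p = 0.105). The call was also lost with no count filter (0.120) and when only the NT groups were fitted (0.0861). In ES the log2 fold change of KO against WT was 0.08 ± 0.11 (adjusted p = 0.741).

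With ES Id1 had a log2 fold change of 0.03 ± 0.11 in WT (adjusted p = 0.916) and of -0.35 ± 0.11 in KO (0.283), and the difference of -0.39 ± 0.16 did not pass (0.380). Without KO NT replicate 1, where KO NT replicate 2 is alone in its group, the ES effect in KO was -0.54 (adjusted p = 0.00465) and the difference -0.58 (0.0130). In old Id1 had 84.9, 90.4 and 70.5 CPM, against 74.5, 64.2 and 68.0 CPM in young. The first 2 old libraries were above all young ones, and old replicate 3 was within their range. The log2 fold change was 0.25 ± 0.09 (adjusted p = 0.137), and 0.35 without old replicate 3 (adjusted p = 0.0148).

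Id3 had 44.9 and 39.4 CPM in KO ES, 44.3 and 50.5 CPM in KO NT, 37.7 and 35.3 CPM in WT ES, and 40.3 and 40.9 CPM in WT NT. The WT ES pair was lowest and KO NT replicate 2 highest. None of its comparisons passed, the log2 fold changes being -0.15 ± 0.09 with ES in WT (adjusted p = 0.432), -0.17 ± 0.09 with ES in KO (0.688), 0.22 ± 0.09 in KO against WT in NT (0.233) and 0.21 ± 0.09 in ES (0.213). Old libraries had 54.5, 61.0 and 47.9 CPM, against 47.2, 44.6 and 47.4 CPM in young, all above the young ones but old replicate 3 only slightly. The log2 fold change of 0.23 ± 0.09 did not pass (adjusted p = 0.139), and it was 0.32 without old replicate 3 (adjusted p = 0.0232).

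Immediate early genes, which cells induce within minutes of stimulation or handling (Fos, Jun and Egr1 among 10), differed between several of the same groups as Id1. Their sum was 2849.8 and 4282 CPM in the KO NT libraries, against 1472 to 1488 CPM in WT NT, 2442 to 2899 CPM in KO ES, against 1913 to 2038 CPM in WT ES, and 3962 to 4612 CPM in old, against 2550.2 to 2643 CPM in young. KO NT replicate 2, with the highest Id1, also had the highest sum of the Chrm3 table, and old replicate 3, with the lowest Id1 of the old group, had the lowest sum there. With ES in KO all 10 had a log2 fold change below 0 (median -0.35, 0 called), and that of Id1 was -0.35 ± 0.11. With ES in WT all 10 were above 0 (median 0.40, 0 called), while that of Id1 was 0.03 ± 0.11. In KO against WT edgeR called 9 of 10 higher in NT and 4 in ES, where 2.36% and 3.09% of all genes were called higher. In old against young it called all 10 higher (4.42% of all genes). In KO ES, replicate 2 had the higher sum (2899 CPM) and the lower Id1 (61.7 CPM). The part of the immediate early genes in the Id1 levels was not tested.

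**Figure D4:**
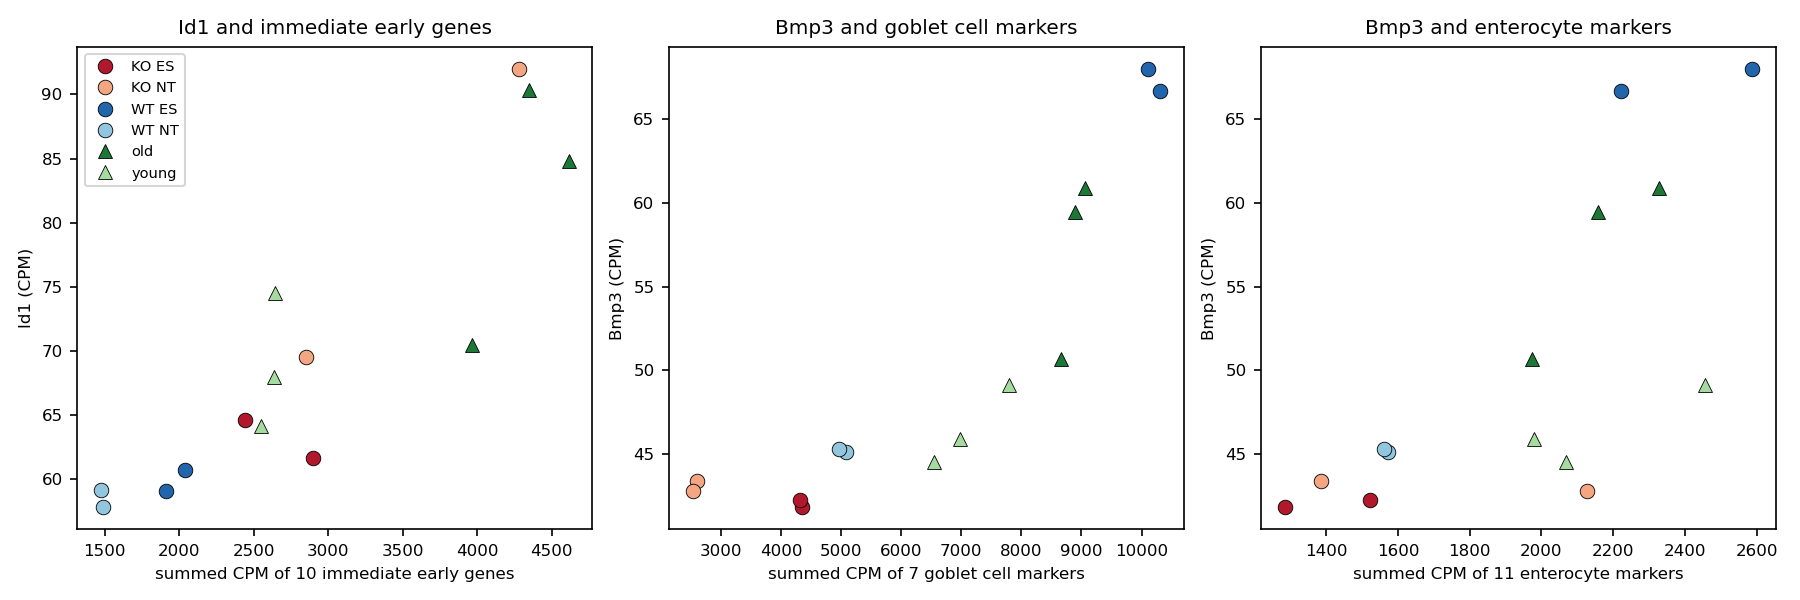
Id1 against the summed CPM of 10 immediate early genes, and Bmp3 against the summed CPM of 7 goblet cell and 11 enterocyte markers, 1 point per library (circles for the Chrm3 table, triangles for the ageing table, each scaled on its own). KO NT replicate 2 has the highest Id1 at a sum of 4282 CPM, and the WT ES libraries have the highest Bmp3 and goblet sums of 10107 and 10315 CPM.

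Among 10815 other genes with a mean of at least 5 CPM in both tables, those most alike Id1 by the lower of the Pearson correlations over 8 Chrm3 and 6 ageing libraries were Atf4 (r = 0.90 and 0.97), a stress-response transcription factor, Csrnp1 (0.90 and 0.90) and the immediate early gene Ier2 (0.90 and 0.90). Most alike Id2 were the rRNA methyltransferase gene Dimt1 (0.88 and 0.93), the sphingomyelinase gene Smpd4 (0.96 and 0.85) and the casein kinase subunit gene Csnk2a2 (0.85 and 0.86). For Id3 they were Dus3l (0.85 and 0.96), the ERK phosphatase gene Dusp5 (0.83 and 0.89) and Id1 (0.83 and 0.96). Id1 was thus among the genes named for Id3, and Id2 was named for neither. The points share library depth and group structure, so these values describe likeness only.

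Other genes of the pathways came from 8 lists by role, and few were called. The median log2 fold changes of these lists ran from -0.44 (TGF-beta and activin ligands) to 0.23 (BMP ligands) with ES in WT and from -0.08 (receptors) to 0.32 (TGF-beta and activin ligands) with ES in KO. They ran from -0.14 to 0.06 in KO against WT in NT, from -0.24 to 0.38 in KO against WT in ES and from -0.19 to 0.25 in old against young, beside medians of -0.01 to 0.00 over all genes. The lists hold 4 to 11 tested genes each. The 5 tested TGF-beta and activin ligands had low levels, at most 4.23 CPM in any library. Among the tested BMP ligands, Bmp8a and Bmp8b reached at most 1.51 and 1.16 CPM. The medians of these 2 lists are thus uncertain. Of 9 further BMP ligands 4 were tested and 0 were called by edgeR in any comparison, with Bmp7 the most abundant at group means of 17.1 to 21.6 CPM and Bmp2 at 2.99 to 6.53 CPM. At an unadjusted p under 0.05 there was 1 with ES in WT and 1 in KO against WT in ES, and DESeq2 called 0 in any comparison. Bmp4 and the antagonist gene Nog were under 1 CPM in all libraries, and the antagonist genes Grem1 and Chrdl2 and the receptor gene Bmpr1b had 0 counts in every library. Of 11 TGF-beta and activin ligands 5 were tested, and Gdf15, a stress-induced divergent family member, rose in KO against WT in ES, at 2.32 ± 0.04 CPM in KO and 1.00 ± 0.17 CPM in WT (SD, n = 2 each, log2 fold change 1.22 ± 0.29, adjusted p = 0.0313). The call was lost without either WT NT, WT ES or KO ES library.

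Of 8 tested receptors and co-receptors, the BMP co-receptor gene Rgmb fell with ES in WT, at 187 ± 14.8 CPM in WT ES and 285 ± 1.32 CPM in WT NT (SD, n = 2 each, log2 fold change -0.61 ± 0.08, adjusted p = 0.00448). It rose in KO against WT in ES, at 249 ± 10.9 CPM in KO (0.41 ± 0.08, adjusted p = 0.0119). The fall was lost without either WT NT library. The rise was lost without WT ES replicate 2 or KO ES replicate 1 and with no count filter (adjusted p = 0.0621). DESeq2, unlike edgeR, also called the ES effect on Rgmb higher in KO than in WT. Of the 14 extracellular inhibitors 5 were tested, and Fstl1, a secreted follistatin-like protein, fell with ES in WT, at 16.2 ± 1.02 CPM in WT ES and 23.4 ± 1.02 CPM in WT NT (-0.53 ± 0.11, adjusted p = 0.0259). That call was lost without either WT ES or either WT NT library and with no count filter (adjusted p = 0.0915). The 6 Smads that carry the signal and 11 tested intracellular regulators had 0 calls by edgeR in the 5 comparisons of the Chrm3 table, with 0 to 3 of each list at an unadjusted p under 0.05. DESeq2 called 1 of them, the corepressor Tgif2, lower with ES in WT.

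The list of other target genes had 10 tested, among them Id4, and shares Skil and Smad9 with the lists above. Of these 10, 2 rose with ES in WT (3.48% of all genes called). With ES in KO 0 were called (0.513%), where DESeq2 called Klf10 lower and 3 had an unadjusted p below 0.05. In KO against WT 1 rose in NT (4.47%) and 2 fell in ES (7.56%), and 1 had a lower ES effect in KO than in WT (0.109%). DESeq2 called 2 with a lower ES effect in KO (Klf10 and Tgfbi), among 211 genes it called for this difference. In KO against WT in ES it called 3 lower (Klf10, Tgfbi and Cdkn2b). Klf10, a TGF-beta-inducible early zinc finger factor, rose with ES in WT, at 83.9 ± 1.71 CPM in WT ES and 40.1 ± 0.37 CPM in WT NT (1.07 ± 0.12, adjusted p = 0.00193), a call lost without WT NT replicate 2. It also rose in KO against WT in NT, at 98.6 ± 21.8 CPM in KO NT (1.30 ± 0.12, adjusted p = 0.000201). The difference of its ES effects was -1.68 ± 0.17 (adjusted p = 0.00894), lost without either WT NT or either KO ES library and with no count filter (0.139). Tgfbi, an extracellular matrix protein induced by TGF-beta, rose with ES in WT, at 46.0 ± 3.36 CPM in WT ES and 25.5 ± 1.71 CPM in WT NT (0.85 ± 0.12, adjusted p = 0.00722), a call lost without either WT NT library or WT ES replicate 1. In KO against WT in ES it fell, at 23.0 ± 0.19 CPM in KO ES (-1.003 ± 0.12, adjusted p = 0.00103), in all 14 alternative fits. Cdkn2b, a cell cycle inhibitor, fell in KO against WT in ES, at 8.78 ± 0.47 CPM in KO ES and 15.6 ± 2.38 CPM in WT ES (-0.82 ± 0.21, adjusted p = 0.0376), a call lost without either WT NT, WT ES or KO ES library and with no count filter (0.131). The list's median log2 fold change in KO against WT in ES was -0.24, beside 0.00 over all genes.

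The bHLH factors that Id proteins restrain or pair with include Ascl2, a stem cell factor, and Atoh1, which starts the secretory lineage, and all 9 were tested. Ascl2 fell with ES in WT, at 22.0 ± 0.16 CPM in WT ES and 36.6 ± 0.82 CPM in WT NT (-0.74 ± 0.10, adjusted p = 0.00685), lost without any of the WT libraries and with no count filter (0.0512). It rose in KO against WT in ES, at 30.3 ± 0.12 CPM in KO ES (0.47 ± 0.11, adjusted p = 0.0243). This rise was lost without either WT NT, WT ES or KO ES library and with no count filter (0.0941). DESeq2, unlike edgeR, also called the ES effect on Ascl2 higher in KO than in WT. Atoh1 rose with ES in KO, at 20.2 ± 2.27 CPM in KO ES and 11.8 ± 0.03 CPM in KO NT (0.77 ± 0.11, adjusted p = 0.0200), lost without either WT NT library or KO ES replicate 2, with no count filter (0.157) and when only the KO groups were fitted (0.0938). It fell in KO against WT in NT, where WT NT had 20.2 ± 1.5 CPM (-0.77 ± 0.11, adjusted p = 0.00398), lost without WT NT replicate 1.

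With age, 1 of 10 tested intracellular regulators rose and 2 fell, where 4.42% of all genes were called higher and 3.42% lower. Tgif2, a Smad corepressor, fell in old, at 13.7 ± 0.84 CPM in old and 24.5 ± 1.76 CPM in young (SD, n = 3 each, -0.84 ± 0.10, adjusted p = 0.000425). Smurf1, a ubiquitin ligase for BMP Smads and receptors, fell as well, at 29.7 ± 1.45 CPM in old and 38.2 ± 0.31 CPM in young (-0.36 ± 0.07, adjusted p = 0.0101). Both calls held in all 11 alternative fits. The corepressor Tgif1 rose, at 82.5 ± 3.42 CPM in old and 69.4 ± 4.81 CPM in young (0.25 ± 0.07, adjusted p = 0.0476), a call lost without any library but young replicate 3 and with no count filter (adjusted p = 0.131).

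Smad4, the common partner of both pathways, rose in old among 6 Smads, at 167 ± 4.09 CPM in old and 146 ± 5.08 CPM in young (0.20 ± 0.05, adjusted p = 0.0476). Leaving out any of the 6 libraries, or the count filter (0.0960), ended this call. DESeq2 called Smad2 besides Smad4, with 1 Smad higher and 1 lower in old. Rgmb rose, at 280.5 ± 18.7 CPM in old and 233 ± 5.46 CPM in young (0.27 ± 0.06, adjusted p = 0.0177), lost without young replicate 1 or 2 or old replicate 1 and with no count filter (0.0631). Its relative Rgma fell (-2.19 ± 0.56, adjusted p = 0.0362) at 0.155 ± 0.114 CPM in old and 0.735 ± 0.285 CPM in young, and the call was lost without young replicate 2 or 3 or old replicate 1 or 3 and with no count filter (adjusted p = 0.106). Klf10 rose, at 111 ± 15.8 CPM in old and 79.9 ± 9.89 CPM in young (0.47 ± 0.11, adjusted p = 0.0238), a call kept without young replicate 1 or old replicate 3 and lost without the others and with no count filter (0.136). Among bHLH factors Ascl2 fell, at 20.95 ± 2.22 CPM in old and 32.4 ± 4.04 CPM in young (-0.62 ± 0.11, adjusted p = 0.00579). Neurog3, which starts the enteroendocrine lineage, rose, at 12.1 ± 1.66 CPM in old and 7.49 ± 0.36 CPM in young (0.69 ± 0.13, adjusted p = 0.00975). The calls of Ascl2 and Neurog3 held in all 11 alternative fits. DESeq2 also called Neurod1 and Tcf3, giving 2 bHLH factors higher and 2 lower in old. Leukocyte markers summed to 628 to 903 CPM in old, against 193 to 223 CPM in young. Most of these sums was Cd74, at 173 to 840 CPM over all libraries, while no other marker of the list passed 26.0 CPM. Of 6 leukocyte markers tested, edgeR called 5 higher in old, where 4.42% of all genes were called higher. The part of leukocytes in the ageing results was not tested.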

How the data were processed

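The deposited files are whole-number read counts for Ensembl genes, 1 table for the 8 Chrm3 libraries and 1 for the 6 ageing libraries, made by the authors on mm10 per the submitters' processing notes, which also name FastQC 0.11.2. No aligner or counter is named there; neither is given in the sources used here. Per the labels' protocols, polyadenylated RNA was extracted with Trizol and made into strand-specific TruSeq libraries. Columns named Ctrl were read as NT. Gene positions and exon lengths were taken from GENCODE M21, which holds 55154 of the 55335 identifiers, and promoter sequence from RefSeq.

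Genes were filtered with filterByExpr, scaled by TMM and tested with the quasi-likelihood F-test of edgeR 4.0.16 (R 4.3.3), with Benjamini-Hochberg adjustment over all genes of a table and a threshold of 0.05. The 8 Chrm3 libraries shared 1 fit, and the tables were scaled and tested separately. The ± after a log2 fold change is an approximate standard error derived from the F statistic. The script was tested on simulated data. The labels do not say whether libraries came from different animals, so p-values measure the spread between libraries only.

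Genes named were the 10 members, pathway genes called in a comparison (at most 3 per list and comparison) and the 3 genes most alike each Id gene. Alternatives were relative log expression (RLE) scaling, no filter, DESeq2 1.42.0, a replicate block, fitting only the 2 groups compared, leaving out each library and, added after seeing the data, the earlier quasi-likelihood form of edgeR. The genes and lists were chosen with earlier results of these data known.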

Additional observations from a re-analysis of the deposited data

Results flagged for a closer look

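Bmp3 is listed because its ES effects differed by a test and its libraries lay on opposite sides: both WT ES libraries (66.6 and 68.0 CPM) lay above both WT NT libraries (45.1 and 45.3 CPM), while both KO ES libraries (41.8 and 42.3 CPM) lay below both KO NT libraries (43.4 and 42.8 CPM). The ES effect in KO minus that in WT was -0.61 ± 0.09 on the log2 scale (edgeR, adjusted p = 0.0475), a call that held in 5 of 13 alternative fits. It was lost with no count filter (0.261), with the earlier quasi-likelihood form (0.0536) and in 6 of 8 fits that left out a library (0.113 to 0.363). The ES effect within KO, -0.04 ± 0.07, did not pass (0.962). Bmpr2 is listed for the position of its libraries alone: both WT ES libraries lay below both WT NT libraries, and both KO ES libraries above both KO NT libraries. Its log2 fold changes, 0.08 ± 0.07 in KO (adjusted p = 0.871) and -0.08 ± 0.07 in WT (0.591), did not pass in edgeR, nor did their difference of 0.16 ± 0.10 (0.591). Groups of 2 did not overlap for 33.3% of all genes with ES in KO and for 52.8% with ES in WT.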

How the results depend on the processing

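Of 800 values of the 10 genes under an alternative, 763 kept their side of the threshold, 29 lost a call, 8 gained a call and 0 reversed. Most were of comparisons without a call in the main fit, where no call could be lost. Calls of the main fit were kept in 14 of 14 alternatives for Bmp3 and Id2 in KO against WT in ES. With ES in WT they were kept in 12 of 14 for Bmp3 and 9 of 14 for Id2. Id1 kept its call in 5 of 14 in KO against WT in NT. The difference for Bmp3 was kept in 5 of 13, and the fall of Bmpr2 in old in 6 of 11. Of 294 values of the pathway genes called, 217 kept the call and 77 lost it. With no count filter the number of the 10 genes called was 1 for ES in WT, 0 for KO against WT in NT, 0 for the difference of the ES effects and 0 for old against young. It was 0 for KO against WT in NT when only the 2 groups compared were fitted, 0 for the difference with the earlier quasi-likelihood form, and 2 for old against young with DESeq2 and with the replicate block. Over all genes, no filter gave 114 calls for ES in WT, 8 for ES in KO, 317 and 593 for KO against WT in NT and ES, 0 for the difference and 666 for old against young. DESeq2 gave 1043, 226 and 211 for ES in WT, ES in KO and the difference. Fitting only the 2 groups gave 1875 and 24 for ES in WT and in KO, and the earlier form 11 for the difference. The cause was not tested.

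Leaving out each library in turn, the 10 genes had 0 to 2 calls for ES in WT, 0 to 1 for ES in KO, 0 to 1 for KO against WT in NT, 2 in each fit for KO against WT in ES, 0 to 2 for the difference and 0 to 4 for old against young. All genes had 23 to 1209, 11 to 278, 145 to 848, 375 to 1936, 0 to 363 and 636 to 1485 calls in the same order. Fits that leave 1 library in a group assume that it varies like the others.

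Replicate numbers were not treated as pairs in the main fit. Same-numbered samples correlated in their deviations from group means at -0.00832 to 0.103 in the Chrm3 table and 0.00454 to 0.0837 in the ageing table. In groups of 2 the deviations mirror each other, so the Chrm3 values can hardly judge pairing. Of 6 ageing samples, 4 correlated best with their own number. Whether the numbers mark pairs was not settled. With the replicate block the calls over all genes were 970 for ES in WT (605 in the main fit) and 206 for ES in KO (89). They were 104 for the difference (19) and 2019 for old against young (1318). Bmp3 passed in old against young with the block (0.29, edgeR adjusted p = 0.0349). With 2 libraries a group, differences of the size seen for most of these genes were not resolved.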
